A study of Mus musculus with 6 samples.

Results

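The genes described here are 36 markers of macrophages and other myeloid cells, measured in the sciatic nerve of mouse pups on postnatal day 2. They were chosen as a fixed list of symbols, and 35 of the 36 had expression values high enough to be tested, out of 14550 genes tested in all. The exception was Cd14, the lipopolysaccharide co-receptor, whose log2 values were 3.37, 3.36 and 3.02 on the dKO arrays and 3.20, 3.67 and 3.37 on the control arrays. All 6 of these lay under the low-value limit of 4 that a gene had to reach on at least 3 of the 6 arrays. The member just inside the limit was Fcgr2b, with a value of 3.60 on 1 control array and of 4.34 or more on the other 5 arrays. Fcgr2b and Ptprc each had 1 control value under the limit, so for both only the dKO group reached it on all 3 of its arrays, and the other 33 tested members lay above it on all 6 arrays.

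The nerves came from 3 double knockout (dKO) samples, genotype DhhCre+ HDAC1-2 dKO with peripheral hypomyelination given as the disease state, and from 3 control samples of genotype DhhCre–, which were littermates by the design text. Both groups were pups of mixed strain kept with the mother until day 2, and the perineurium was removed from all nerves. The labels do not give the other alleles of the controls, nor how many nerves or pups went into a sample, so p-values measure only the spread between these samples, which may be technical. The Cre is driven by Dhh, the desert hedgehog gene of the Schwann cell lineage, the glia that myelinate peripheral axons.

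Macrophages in nerve are blood-lineage cells, not Schwann cells, so the Cre is not known to act in them. They depend on signalling through the receptor Csf1r and carry Fc receptors with their signalling adaptors. They also make the chains of complement C1q and digest what they take up in lysosomes. Resident macrophages of connective tissue also carry scavenger receptors such as Mrc1, Cd163 and Lyve1. In nerve they are best known for clearing myelin debris after injury. In RNA of whole nerve, more cells of a type and more RNA per cell cannot be told apart.

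The platform was the Affymetrix Mouse Genome 430 2.0 array, with 1 array per sample, and values are log2 expression of 1 probe set per gene. Values are given in the order of arrays 1, 2 and 3 of each group, and a change is the dKO mean minus the control mean, given with its standard error (SE). The targeted genes were lower on the dKO arrays, Hdac1 by a log2 change of -1.55 (SE 0.13) and Hdac2 by -1.26 (SE 0.15; -0.71 with averaged probe sets). Of all genes tested, 12.6% were called higher and 9.38% lower in dKO at an adjusted p under 0.05. Arrays correlated at 0.980 to 0.991 within dKO and at 0.981 to 0.988 within control. Against the control mean, the median over all genes was -0.04, -0.01 and 0.08 on dKO 1, dKO 2 and dKO 3. For the markers dKO 3 stood apart. Its value was the highest of the 3 dKO arrays for 32 of the 35 tested markers (50% of all genes tested), and the highest of all 6 arrays for 32 (31.0% of all genes), so counts and medians are also given without dKO 3.

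Most macrophage markers had higher mean values in dKO nerves, but only part of them passed the test. Of the 35 markers, 9 rose (12.6% of all genes did) and 0 fell (9.38% of all genes did) in limma's test. Its p-values were adjusted by Benjamini-Hochberg over all genes tested. In either direction 9 of 35 were called, beside 22% of all genes. At an unadjusted p under 0.05 the counts were 18 and 0, beside 19.5% and 14.7% of all genes. The change was above 0 for 33 of the 35, against 50.7% of all genes. The median log2 change was 0.75, against 0.01 over all genes tested. All 3 dKO values lay above all 3 control values for 17 markers (22.6% of all genes) and below them for 0 (18.4% of all genes). Ptprc, with a control value under the limit, was among these 17 and among the 18 at an unadjusted p under 0.05. The 9 that rose were Ly86, Ctss, C1qc, Aif1, Mpeg1, Cd53, Tyrobp, Cybb and C1qa, with changes of 0.84 to 1.67, or 1.80-fold to 3.18-fold. Without dKO 3 the median was 0.42, and 10 markers rose, the same 9 and C1qb (10.7% of all genes rose in that fit). Without other single arrays the number that rose lay between 5, without control 2, and 12, without dKO 1. In those 2 fits 8.92% and 9.67% of all genes rose.

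**Figure D1:**
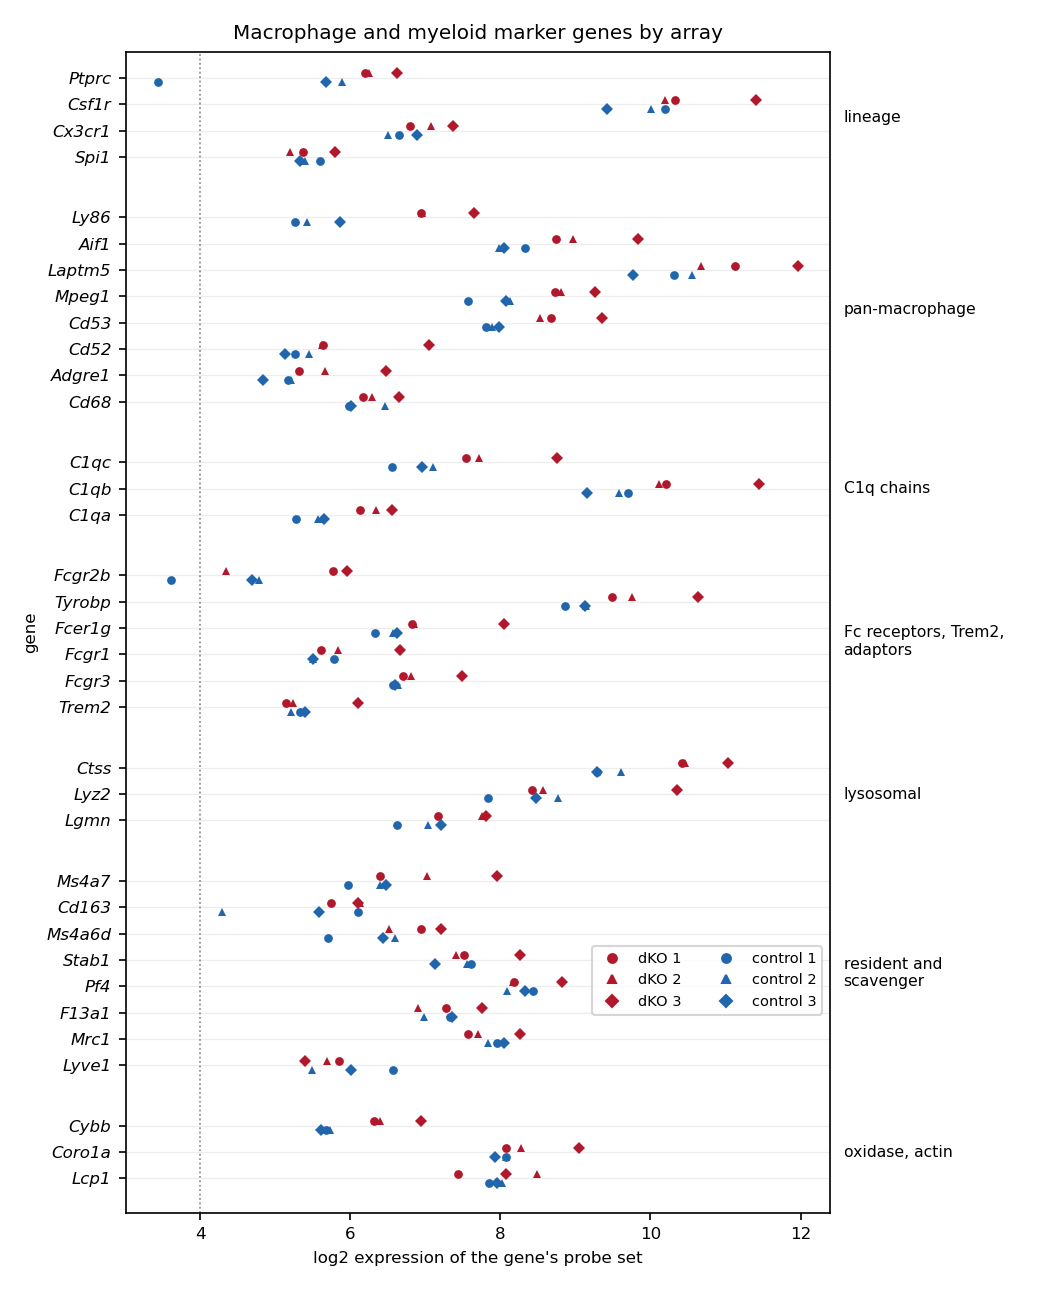
Log2 expression of the 35 tested markers (horizontal axis) on each of the 6 arrays, with genes grouped by role down the page, dKO arrays in red above control arrays in blue, and the array number by symbol. The dotted line is the low-value limit of 4. The red diamond, dKO 3, is the rightmost point for 32 markers.

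Promoters are printed here to show the sequence next to genes that rose (Ly86, Ctss, Cd53 and C1qc) and next to one that did not pass the test (Mrc1). Each is the 250 bases before the annotated start of the gene in RefSeq, build GRCm38.p6, written from 5′ to 3′ in the direction of the gene. Capitals mark GAGGAA or its reverse complement TTCCTC, letters contained in sites bound by PU.1, the myeloid transcription factor that the marker gene Spi1 encodes.
Ly86 (chr13:37345095-37345344, plus strand): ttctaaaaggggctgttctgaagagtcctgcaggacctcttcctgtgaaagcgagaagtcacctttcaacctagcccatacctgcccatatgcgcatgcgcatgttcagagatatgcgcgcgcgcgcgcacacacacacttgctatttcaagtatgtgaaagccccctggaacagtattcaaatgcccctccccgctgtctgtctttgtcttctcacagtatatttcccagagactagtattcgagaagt
Ctss (chr3:95526536-95526785, plus strand): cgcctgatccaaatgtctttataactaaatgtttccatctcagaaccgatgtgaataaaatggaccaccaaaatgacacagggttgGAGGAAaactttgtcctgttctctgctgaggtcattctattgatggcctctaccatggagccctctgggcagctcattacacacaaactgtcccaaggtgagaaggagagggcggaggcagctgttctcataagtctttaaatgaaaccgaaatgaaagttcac
Cd53 (chr3:106790150-106790399, minus strand): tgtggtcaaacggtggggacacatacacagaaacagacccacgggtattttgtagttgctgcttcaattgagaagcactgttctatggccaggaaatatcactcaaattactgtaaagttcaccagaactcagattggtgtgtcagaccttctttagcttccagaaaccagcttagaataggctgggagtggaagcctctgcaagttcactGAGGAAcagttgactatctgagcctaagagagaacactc
C1qc (chr4:136892915-136893164, minus strand): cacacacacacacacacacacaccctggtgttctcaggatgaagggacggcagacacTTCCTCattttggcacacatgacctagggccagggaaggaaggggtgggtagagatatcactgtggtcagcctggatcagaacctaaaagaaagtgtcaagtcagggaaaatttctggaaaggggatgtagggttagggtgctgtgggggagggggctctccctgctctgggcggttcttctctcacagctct
Mrc1 (chr2:14229164-14229413, plus strand): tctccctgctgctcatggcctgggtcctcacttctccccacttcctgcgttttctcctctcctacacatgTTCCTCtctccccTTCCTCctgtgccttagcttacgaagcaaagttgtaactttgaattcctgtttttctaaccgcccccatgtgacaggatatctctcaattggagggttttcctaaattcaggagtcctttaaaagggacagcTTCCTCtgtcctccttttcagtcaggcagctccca
Windows of this kind were found for 27 of the 36 markers, 34 windows in all, since some genes have several annotated starts. GAGGAA occurred on either strand in 16 of the 34 windows (47.1%), against 23.3% of all 32851 windows of the same length. The longer form GAGGAAGT, which contains GAGGAA, occurred in 2 of the 34, in C1qc and Pf4, against 2.44% of all windows. Among windows of the markers that rose, 4 of 7 held GAGGAA, and among those of the tissue-resident and scavenger markers 4 of 8 did. Ly86, the marker with the largest change, had no match in its window, and Mrc1 had 3. A match describes the letters only, and whether PU.1 binds there was not tested.

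Of the 4 genes for lineage receptors and the lineage regulator, 0 passed the test in limma, beside 22% of all genes. At an unadjusted p under 0.05, 1 was higher, beside 19.5% of all genes. That gene was Ptprc, which reached the limit on all 3 arrays only in dKO. The median change of the 4 was 0.58, and 0.32 without dKO 3. Csf1r, the receptor for the growth factors that maintain macrophages, had log2 values of 10.33, 10.19 and 11.40 in dKO nerves and 10.20, 10.01 and 9.43 in control nerves. The dKO 2 value lay just under the highest control value, and dKO 3 was more than 1 log2 unit above the other arrays. The change was 0.76 (SE 0.34, 95% interval -0.01 to 1.53, adjusted p = 0.151), and 0.38 without dKO 3. Its other 2 probe sets changed by 0.79 and 0.23. Ptprc, which encodes the leukocyte phosphatase CD45, had values of 6.20, 6.24 and 6.62 in dKO nerves and 3.44, 5.89 and 5.68 in control nerves. The groups did not overlap, but control 1 lay far below the other controls and under the limit. The change of 1.35 (SE 0.57, adjusted p = 0.134) was 1.16 with that value set to the limit and 0.57 without control 1. Cx3cr1, the fractalkine receptor, changed by 0.40 (SE 0.19, adjusted p = 0.168), and its groups overlapped. Spi1 had values of 5.38, 5.20 and 5.79 in dKO nerves and 5.60, 5.39 and 5.34 in control nerves. Those values interleave, and the change was 0.02 (SE 0.18, 95% interval -0.40 to 0.44).

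Among the 8 tested pan-macrophage surface and intracellular markers, 4 rose (12.6% of all genes) and 0 fell (9.38%). At an unadjusted p under 0.05 the counts were 7 and 0, beside 19.5% and 14.7% of all genes. For 7 of the 8 the dKO values all lay above the control values (22.6% of all genes). The median change was 0.98, and 0.69 without dKO 3, where again 4 rose (10.7% of all genes rose in that fit). Ly86, which encodes the secreted partner of the Toll-like receptor relative Cd180, had the largest change of all the markers. Its values were 6.94, 6.96 and 7.65 in dKO nerves and 5.26, 5.42 and 5.86 in control nerves. Every dKO array was more than 1 log2 unit above the highest control array. The change was 1.67 (SE 0.24, adjusted p = 0.00203), or 3.18-fold, and it was called with any 1 array left out (1.44 to 1.84). Mpeg1, which encodes a pore-forming protein of phagocytes, had values of 8.73, 8.81 and 9.26 in dKO nerves and 7.57, 8.13 and 8.07 in control nerves. This gene too was separated by group, with a change of 1.01 (SE 0.21, adjusted p = 0.0110) that was called with any 1 array left out.

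Aif1 encodes the calcium-binding protein IBA1, a common stain for macrophages and microglia. It had values of 8.74, 8.97 and 9.84 in dKO nerves and 8.33, 7.98 and 8.05 in control nerves, a change of 1.06 (SE 0.28, adjusted p = 0.0271). The leukocyte tetraspanin gene Cd53 had values of 8.68, 8.53 and 9.35 in dKO nerves and 7.80, 7.89 and 7.99 in control nerves, a change of 0.96 (SE 0.22, adjusted p = 0.0164). Neither gene overlapped between groups. With averaged probe sets the Cd53 change was 0.50 (adjusted p = 0.0348). The Aif1 call was lost without dKO 2, control 2 or control 3 (adjusted p = 0.0511, 0.0853 and 0.0672) and the Cd53 call without control 1 or control 2 (0.0511 and 0.0521). Laptm5, a lysosomal membrane protein gene of blood-lineage cells, changed by 1.04 (SE 0.33, adjusted p = 0.0599) with groups that did not overlap. Its probe set carries the suffix _x_at, which marks probes that may be shared with other transcripts, and its 3 dimmer probe sets above the limit changed by only -0.13 to 0.08. It was called without dKO 2 (1.33, adjusted p = 0.0335). Cd52, a small surface glycoprotein gene, and Adgre1, which encodes the F4/80 antigen, changed by 0.82 (SE 0.36) and 0.75 (SE 0.28) and did not pass (adjusted p = 0.145 and 0.100), although Adgre1 was called without dKO 1 (0.998, adjusted p = 0.0452). Cd68, the lysosomal glycoprotein macrosialin, overlapped between groups, with a change of 0.22 (SE 0.19, 95% interval -0.22 to 0.66).

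The genes of all 3 C1q chains, which assemble into the recognition molecule of the classical complement pathway, were separated by group. C1qa had values of 6.14, 6.34 and 6.55 in dKO nerves and 5.28, 5.57 and 5.64 in control nerves, a change of 0.84 (SE 0.17, adjusted p = 0.00922). C1qc had 7.55, 7.72 and 8.75 in dKO nerves and 6.56, 7.10 and 6.96 in control nerves, a change of 1.13 (SE 0.31, adjusted p = 0.0339). C1qb had 10.21, 10.11 and 11.44 in dKO nerves and 9.71, 9.57 and 9.16 in control nerves, a change of 1.11 (SE 0.34, adjusted p = 0.0524). So 2 of 3 rose (12.6% of all genes), and 3 at an unadjusted p under 0.05 (19.5%). Among all genes, 22.6% had all dKO values above all control values, as these 3 did. The change of C1qa was called with any 1 array left out. That of C1qc was lost without dKO 2 or any 1 of the control arrays (adjusted p up to 0.104). C1qb passed without dKO 3, with a change of 0.68 (adjusted p = 0.0491), and without dKO 2, with 1.35 (adjusted p = 0.0481). Its other 2 probe sets changed by 1.02 and 0.77. The C1qb probe set used and the one with 1.02 carry the suffix _x_at, as for Laptm5, and the one with 0.77 does not. The 3 genes lie side by side on chromosome 4 in the mouse.

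Among Fc receptor genes, Trem2 and the adaptors they signal through, 1 of 6 rose (12.6% of all genes) and 0 fell (9.38%). At an unadjusted p under 0.05 the counts were 2 and 0, beside 19.5% and 14.7% of all genes. The median change of the 6 was 0.58, and 0.24 without dKO 3. Tyrobp, which encodes the activating adaptor DAP12, had values of 9.49, 9.75 and 10.64 in dKO nerves and 8.86, 9.15 and 9.13 in control nerves. The groups did not overlap, and the change was 0.92 (SE 0.28, adjusted p = 0.0494), close to the threshold. It was 0.58 without dKO 3 (adjusted p = 0.0473), and the call was lost without dKO 2 or any 1 of the controls (adjusted p up to 0.135). Fcer1g, the common gamma chain of activating Fc receptors, had values of 6.82, 6.85 and 8.05 in dKO nerves and 6.32, 6.57 and 6.62 in control nerves, a change of 0.73 (SE 0.32, adjusted p = 0.143). Here dKO 1 and dKO 2 lay close above the controls and dKO 3 far above them. Fcgr1 and Fcgr3, both activating receptors for immunoglobulin G, changed by 0.44 (SE 0.26) and 0.39 (SE 0.21), and by 0.12 and 0.15 without dKO 3. Fcgr2b, the inhibitory receptor, had values of 5.77, 4.34 and 5.96 in dKO nerves and 3.60, 4.79 and 4.69 in control nerves. Its values were scattered within both groups, and 1 of its other 2 probe sets above the limit changed in the opposite direction (-0.14 and 0.22). The change of 0.997 (SE 0.46, adjusted p = 0.167) was 0.87 with the control 1 value set to the limit, and the gene was called only without dKO 2 (1.504, adjusted p = 0.0318). The lipid-sensing receptor gene Trem2 changed by 0.18 (SE 0.25, 95% interval -0.39 to 0.75), and by -0.12 without dKO 3.

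Of 3 lysosomal genes, only Ctss rose, beside 12.6% of all genes. This gene encodes cathepsin S, a protease that works in antigen processing, and its values were 10.42, 10.46 and 11.03 in dKO nerves and 9.28, 9.61 and 9.28 in control nerves. All dKO arrays lay above the highest control, and the change was 1.25 (SE 0.20, adjusted p = 0.00347), or 2.37-fold. It was called with any 1 array left out (1.05 to 1.36). Lyz2, which encodes lysozyme and is abundant in macrophages and neutrophils, had values of 8.42, 8.57 and 10.35 in dKO nerves and 7.84, 8.77 and 8.47 in control nerves. The dKO 3 array was 1.86 log2 units above the mean of the other dKO arrays, the largest such gap among the markers, while dKO 1 and dKO 2 lay within the control range. The change of 0.75 (SE 0.49, adjusted p = 0.319) was 0.13 without dKO 3. Lgmn, the asparaginyl protease legumain, changed by 0.63 (SE 0.22, adjusted p = 0.0842) with overlapping groups, and was called without dKO 1 (0.83, adjusted p = 0.0376).

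None of the 8 tissue-resident and scavenger markers passed in limma (0 called, beside 22% of all genes). At an unadjusted p under 0.05, 2 were higher, beside 19.5% of all genes. For all 8 the groups overlapped, as they did for 8592 of all 14550 genes. The median change of the 8 was 0.20, and -0.04 without dKO 3. Mrc1, the mannose receptor, had values of 7.56, 7.70 and 8.27 in dKO nerves and 7.96, 7.83 and 8.05 in control nerves. The dKO 1 and dKO 2 values were the lowest of the 6 and dKO 3 the highest. Its change was -0.11 (SE 0.20, 95% interval -0.56 to 0.35), and -0.32 without dKO 3. Lyve1, a hyaluronan receptor of some resident macrophages and of lymphatic vessels, had values of 5.85, 5.69 and 5.40 in dKO nerves and 6.57, 5.49 and 6.01 in control nerves, a change of -0.38 (SE 0.27). It was the only marker whose dKO 3 value was the lowest of the dKO arrays. Pf4 and F13a1, which encode platelet factor 4 and the coagulation factor XIII A chain and are also expressed by megakaryocytes, changed by 0.10 (SE 0.21) and 0.09 (SE 0.23). The change of Stab1, the scavenger receptor stabilin, was 0.30 (SE 0.25). For these 5 genes the upper bound of the 95% interval was 0.87 or lower.

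The other 3 genes of that group had larger but scattered differences. Ms4a7 had values of 6.39, 7.03 and 7.95 in dKO nerves and 5.97, 6.39 and 6.48 in control nerves, a change of 0.84 (SE 0.36, adjusted p = 0.135), called only without dKO 1 (1.21, adjusted p = 0.0348). Ms4a6d, of the same family of membrane proteins, changed by 0.65 (SE 0.27, adjusted p = 0.128). Cd163, the haemoglobin scavenger receptor, had values of 5.75, 6.12 and 6.10 in dKO nerves and 6.10, 4.29 and 5.58 in control nerves. Control 2 was the low value here, and the change of 0.67 (SE 0.40, adjusted p = 0.286) was 0.15 without it.

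Of the remaining genes, Cybb encodes the catalytic subunit of the phagocyte NADPH oxidase. Its values were 6.31, 6.40 and 6.95 in dKO nerves and 5.68, 5.73 and 5.61 in control nerves, so the groups were separated by more than the range of the controls. The change was 0.88 (SE 0.19, adjusted p = 0.0122), called with any 1 array left out, and its other 2 probe sets changed by 0.82 and 0.48. The leukocyte actin regulators did not pass. Coro1a changed by 0.44 (SE 0.24, adjusted p = 0.239), and by 0.15 without dKO 3. Lcp1, which encodes L-plastin, had values of 7.44, 8.49 and 8.07 in dKO nerves and 7.85, 8.03 and 7.95 in control nerves, where the dKO arrays lay on both sides of the controls (change 0.06, SE 0.25). Its other probe set changed by 0.30.

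**Figure D2:**
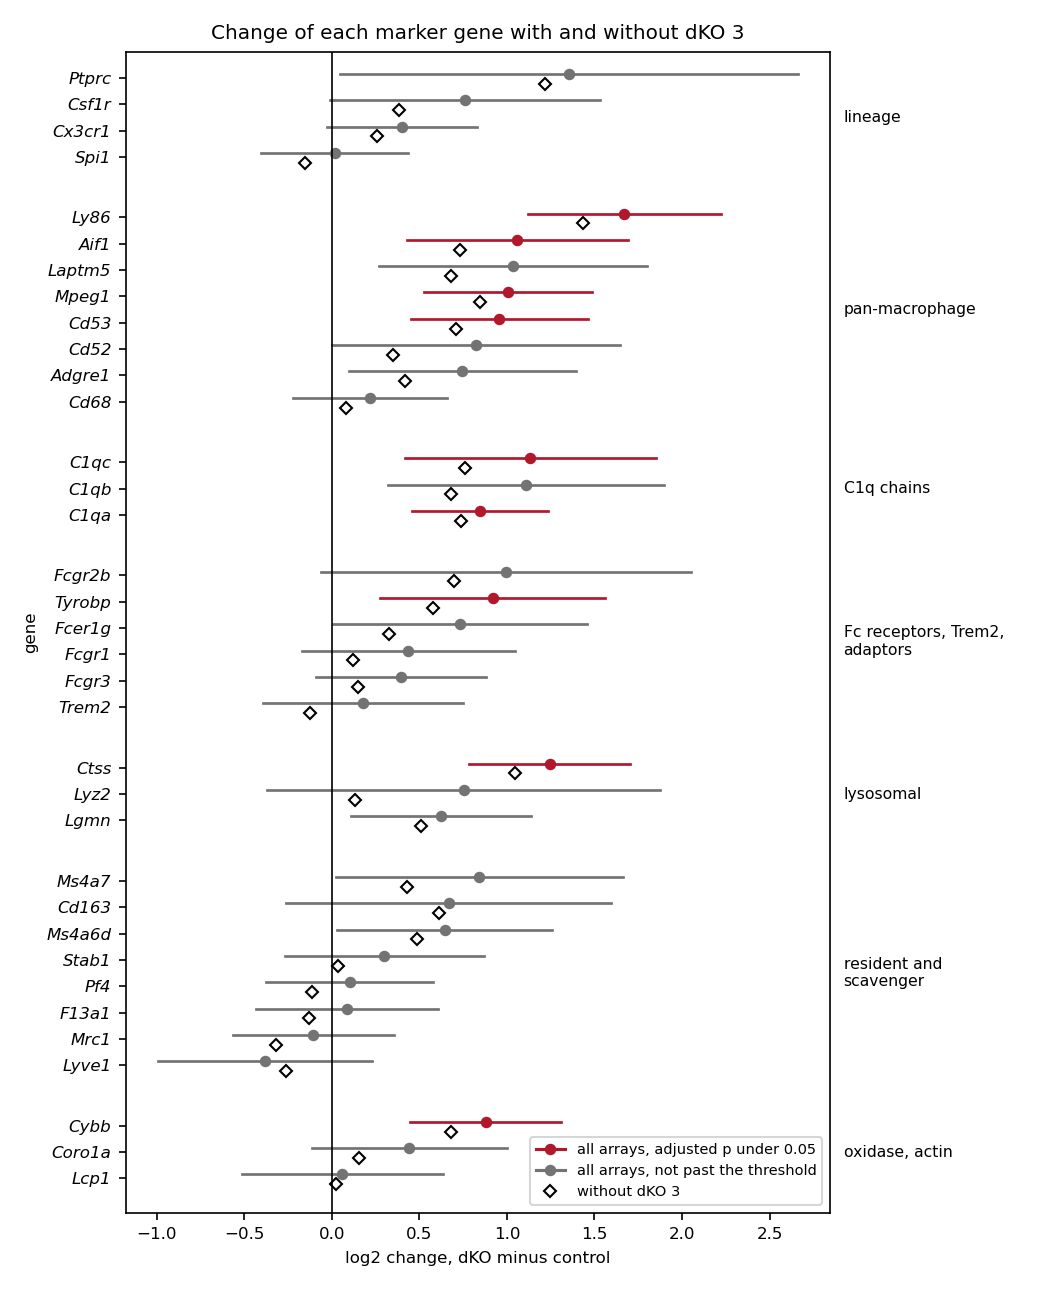
Log2 change of each tested marker, dKO minus control (horizontal axis), with its 95% interval from the limma fit, in red where the adjusted p was under 0.05 and in grey where it was not. Open diamonds give the change without dKO 3, which lay to the left of the filled point for every marker but Lyve1.

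The markers varied together more between the dKO arrays than between the controls. Relative to the control mean of each gene, the mean over the 35 markers was 0.38 on dKO 1, 0.43 on dKO 2 and 1.16 on dKO 3, and -0.08, 0.06 and 0.03 on the control arrays. The SD over arrays was 0.44 for dKO and 0.07 for control (n = 3 each). The dKO 3 value exceeded the mean of dKO 1 and dKO 2 by a median of 0.73 over the markers, against 0.10 over all genes tested, and by more than 0.5 for 25 of the 35, against 14.8% of all genes. By contrast, dKO 1 and dKO 2 differed from each other by a median of 0.16 in size, the same as over all genes (0.16). Both dKO 1 and dKO 2 lay above all controls for 17 markers, against 26.2% of all genes. Xist, a female-specific transcript, had values of 4.69, 11.67 and 11.24 on the dKO arrays and 5.31, 11.55 and 4.14 on the control arrays. The part of sex in the marker levels was not tested.

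A second list of 56 genes expressed in myeloid cells, of which 45 were tested, gave smaller values. In it 3 rose and 0 fell in limma, beside 12.6% and 9.38% of all genes. At an unadjusted p under 0.05 the counts were 12 and 2, beside 19.5% and 14.7% of all genes. The median change was 0.30, and 0.11 without dKO 3 or 0.48 without dKO 1. In these genes too dKO 3 stood apart, as in the markers. Its value exceeded the mean of dKO 1 and dKO 2 by a median of 0.60. For 28 of the 45 it did so by more than 0.5 (14.8% of all genes). It was the highest of all 6 arrays for 30 of the 45 (31.0% of all genes). Tlr4, the lipopolysaccharide receptor, had values of 7.004, 7.318 and 7.828 in dKO nerves and 5.212, 6.139 and 6.237 in control nerves, a change of 1.52 (SE 0.31, adjusted p = 0.00994). Cyba, the membrane partner of the Cybb product in the oxidase, had values of 6.08, 6.67 and 6.98 in dKO nerves and 5.30, 5.77 and 5.47 in control nerves, a change of 1.06 (SE 0.24, adjusted p = 0.0162). Cd84, a surface receptor of the SLAM family, changed by 0.73 (SE 0.22, adjusted p = 0.0451). All 3 were separated by group, and none of them is confined to macrophages. The Tlr4 change was called with any 1 array left out, and was 0.80 with averaged probe sets (adjusted p = 0.00681). The Cyba call was lost without dKO 2 or control 1 (adjusted p = 0.0583 and 0.0538). The Cd84 change was 0.48 without dKO 3, and its call was lost without dKO 1 or any 1 of the controls (adjusted p up to 0.109). Leaving out dKO 3 added 2 that fell (9.26% of all genes fell in that fit), named after their values were seen. Itgb2, an integrin subunit of leukocytes, had values of 6.01, 6.04 and 6.58 in dKO nerves and 6.59, 6.89 and 6.93 in control nerves, a change of -0.59 over all arrays (adjusted p = 0.0628). Msr1, a scavenger receptor, changed by -0.39 over all arrays (adjusted p = 0.248).

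**Figure D3:**
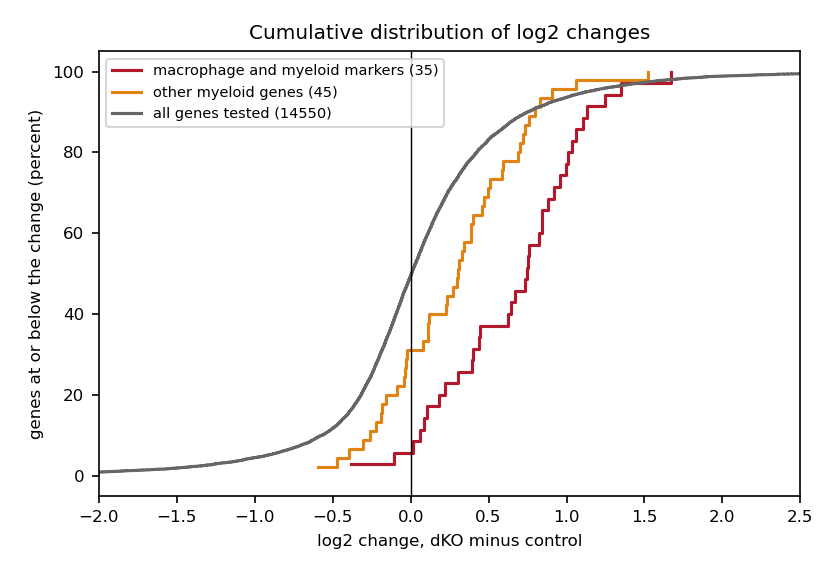
Share of genes (vertical axis, percent) at or below each log2 change, dKO minus control (horizontal axis, shown from -2 to 2.5), for the 35 markers, the 45 other myeloid genes and all 14550 genes tested. Over most of its range the marker curve lies to the right of the others, with a median of 0.75 against 0.30 for the other myeloid genes and 0.01 for all genes.

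Of the 5 macrophage growth and recruitment signals tested, 1 rose (12.6% of all genes) and 1 fell (9.38%). These were the genes of the Csf1r ligands, Csf1 higher and Il34 lower. Csf1, which encodes the main growth factor for Csf1r, had values of 8.54, 8.41 and 8.80 in dKO nerves and 8.12, 7.66 and 7.70 in control nerves. All dKO values lay above the controls, with a change of 0.75 (SE 0.18, adjusted p = 0.0197), and the call was lost without dKO 1, control 2 or control 3 (adjusted p = 0.0523, 0.0740 and 0.0634). With averaged probe sets it was 0.45 (adjusted p = 0.0304). Il34, the other ligand of Csf1r, had values of 3.86, 3.76 and 4.05 in dKO nerves and 4.81, 4.94 and 4.57 in control nerves. It reached the limit on all 3 arrays only in control, and 2 of its dKO values lay under it, so it entered the test only through the group where it is high. It fell by 0.88 (SE 0.16, adjusted p = 0.00535), and was at least 1.69-fold lower in dKO when both were raised to the limit. Cx3cl1, the ligand of Cx3cr1, Ccl2, which attracts monocytes, and Tgfb1 had changes of -0.01 (SE 0.19), 0.08 (SE 0.14) and 0.04 (SE 0.14).

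Of the tested genes, 0 of 9 for T, NK and B cells, 0 of 4 for neutrophils, 0 of 5 for mast cells, 0 of 7 for dendritic cells and MHC class II and 0 of 3 for erythroid cells were called in limma in either direction. Over all genes, 22% were called. At an unadjusted p under 0.05 there was 1 higher dendritic or MHC class II gene and 1 lower mast cell gene. The shares over all genes were 19.5% higher and 14.7% lower. Leaving out control 2 gave 1 dendritic or MHC class II gene that rose, leaving out control 3 gave 1 that fell, and with no low-value limit 1 lymphocyte gene rose. The median changes of the 5 lists were 0.01, 0.17, 0.14, 0.03 and -0.20 in the order above, and -0.09, -0.04, 0.18, -0.08 and 0.16 without dKO 3. The defining genes Cd3e, Il7r and Ms4a1 of lymphocytes, Elane and Mpo of neutrophils and Fcer1a of mast cells were under the limit, as were the myeloid genes Itgam and Cd86. The erythroid mean relative to control was -0.65, 0.79 and -0.68 on the dKO arrays and 0.06, -0.44 and 0.37 on the control arrays. On dKO 3 the neutrophil mean was 0.47 above control, against -0.12 on dKO 1 and 0.15 on dKO 2. The mean of the T, NK and B cell markers was 0.24 on dKO 3, against -0.05 on dKO 1 and -0.16 on dKO 2. That of the dendritic cell and MHC class II genes was 0.21 on dKO 3, against -0.11 on dKO 1 and -0.06 on dKO 2. So these 3 lists had their highest mean on dKO 3, as the macrophage markers did (1.16), but by less. Their highest control means were 0.15, 0.09 and 0.17 in the order above, and the mean over all genes on dKO 3 was 0.11. The mast cell and erythroid means on dKO 3 were -0.02 and -0.68 and were not the highest. The part of other blood cells in the marker levels was not tested.

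Of 8 fibroblast markers, 5 rose (12.6% of all genes) and 0 fell (9.38%), and 3 rose without control 2 or dKO 2. The collagen genes Col1a1, Col1a2 and Col3a1 were not called and changed by 0.12, -0.03 and 0.11. The median change of the list was 0.77, and 0.67 without dKO 3, where 4 rose (10.7% of all genes rose in that fit). The extracellular matrix gene Dpt had values of 7.65, 6.42 and 6.87 in dKO nerves and 3.10, 3.52 and 4.24 in control nerves, and was at least 7.46-fold higher in dKO with the 2 control values under the limit set to it. It entered the test only through its dKO values, and it is 1 of the 5 that rose. Fbln1, which encodes fibulin, rose by 1.48 (SE 0.27). Relative to control, the median over the fibroblast markers was 0.54 on dKO 1, 0.79 on dKO 2 and 0.88 on dKO 3, against 0.31, 0.40 and 1.27 for the macrophage markers. Of 10 endothelial markers 0 were called in limma, beside 22% of all genes. At an unadjusted p under 0.05, 4 were higher, beside 19.5% of all genes. The median of these markers was 0.46, and 0.43 without dKO 3. With the replicate block 2 of them rose, and 1 did with averaged probe sets and 1 without dKO 1. The array dKO 2 was the highest dKO array for 7 of them. Among 6 Schwann lineage markers 2 fell (9.38% of all genes) and 1 rose (12.6%). Those that fell were Erbb3, by 1.33 (SE 0.25), and S100b, by 1.33 (SE 0.26). The one that rose was Ngfr, by 1.004 (SE 0.168), with all dKO values above all control values. Sox10, Cdh19 and Gfra3 were not called and changed by -0.363, -0.547 and 0.041. The median of the 6 was -0.46, and -0.60 without dKO 3, where 3 fell (9.26% of all genes fell in that fit). Because each array was scaled to the same distribution, a smaller share of Schwann cell RNA and a larger amount of macrophage RNA cannot be told apart by these values. The part of fibroblasts, endothelial cells and Schwann cells in the marker levels was not tested.

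**Figure D4:**
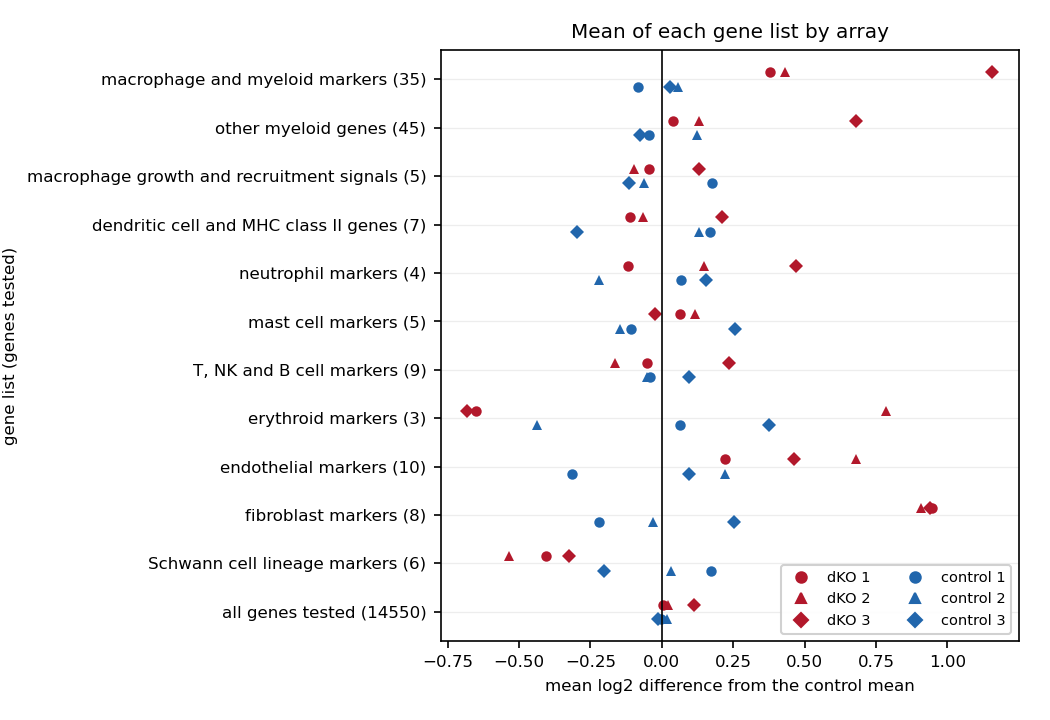
Mean log2 difference from the control mean (horizontal axis) over the tested genes of each list, by array, with dKO in red above control in blue and the array number by symbol; the number of genes tested is in brackets. For the macrophage markers dKO 1 and dKO 2 lie at 0.38 and 0.43 and dKO 3 at 1.16. The fibroblast means, at 0.91 to 0.94, include Dpt, whose change of 3.36 is the largest of that list.

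Each marker was represented by its brightest probe set. For 10 markers, further probe sets lay above the limit, and these 17 changed in the same direction as the one used in 14 cases and in the opposite direction in 3, which belong to Fcgr2b, Laptm5 and Lyve1. None of the 17 was called in the limma fit over all probe sets, in which 6.23% of probe sets were called higher and 5.44% lower. In that fit, with its larger adjustment, 7 of the probe sets used for the markers were called higher. Averaging a gene's probe sets gave a marker median of 0.54, and 10 of 34 rose (13.5% of all genes). It moved Laptm5 to 0.29, Ptprc to 0.73, Ms4a7 to 0.38, Ms4a6d to 0.26, Cx3cr1 to 0.23, Fcgr1 to 0.20, Coro1a to 0.27 and Lyve1 to -0.08, none of which passed there or over the probe sets used.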

How the data were processed

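Values are log2 expression per probe set as deposited by the authors, from 1.66 to 14.94. Per the submitters' processing notes, the tools were GCOS 1.2 and GCRMA; that the scale is log2 follows from the range. Sorted values differed by at most 0.01 between arrays at any rank, so they had been made equal in distribution. An equal shift of all genes could not be seen, and the number of arrays limits the precision (median SE 0.174).

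Gene names came from GEO's platform annotation, with symbols updated by gene ID through RefSeq (GRCm38.p6). All 36 markers matched under their own symbol. The 45101 probe sets comprised 34958 with 1 symbol, 932 with several and 9211 left unnamed here. Each gene was represented by its probe set with the highest mean over the 6 arrays. Of 18194 genes, 14550 with a value of at least 4 on at least 3 arrays were tested, in limma 3.58.1 (R 4.3.3; lmFit and eBayes) without covariates, two-sided, with Benjamini-Hochberg adjustment over all genes and a threshold of 0.05. This fit was tested on simulated data with independent noise for each gene. A shift shared by many genes on an array, as on dKO 3, was not simulated. Named beyond the markers were Hdac1 and Hdac2, all tested growth and recruitment signals, and up to 2 called genes of each other list (up to 6 of the other myeloid genes) whose groups did not overlap, by size of change. Others were named after their values were seen. Markers, lists and tests were chosen with earlier results of these data known. Alternatives were averaged probe sets, a limit of 6 or none, an intensity trend, median centring, a replicate block and leaving out each array.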

Additional observations from a re-analysis of the deposited data

How the results depend on the processing

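The number of markers that rose was 9 and lay between 8 and 11 under the 6 alternatives that kept all arrays. The share of all genes that rose in those 6 lay between 9.98% (no limit) and 16.1% (a limit of 6). With 1 array left out, the number of markers lay between 5 (without control 2) and 12 (without dKO 1). All genes rose at 8.92% and 9.67% in those 2 fits. No marker fell under any of the 12 alternatives. Ly86, Ctss, Mpeg1, Cybb and C1qa were called under every alternative run. Tyrobp was lost with no low-value limit (adjusted p = 0.0569), and its other losses and those of Aif1, C1qc and Cd53 came with 1 array left out. C1qb was called with averaged probe sets, a limit of 6, an intensity trend, median centring, and without dKO 2 or dKO 3 (adjusted p = 0.0304 to 0.0491). The marker median ran from 0.42 to 0.92 with 1 array left out. For the other myeloid genes, 2 to 3 rose and 0 to 2 fell with 1 array left out, with a median of 0.11 to 0.48, and 1 fell with averaged probe sets and 1 with median centring. The Cd84 call was also lost with no limit, the intensity trend and the replicate block (adjusted p = 0.0508, 0.0504 and 0.0674). A limit of 6 left 28 markers to test and removed Il34.

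Changes near 0 turned sign. Trem2 was -0.08 with averaged probe sets, and Spi1, Lcp1 and Tgfb1 were -0.059, -0.017 and -0.035 with median centring. With 1 array left out the ranges were -0.15 to 0.14 for Spi1, -0.12 to 0.36 for Trem2, -0.11 to 0.21 for Pf4, -0.13 to 0.29 for F13a1, -0.19 to 0.34 for Lcp1, -0.32 to 0.034 for Mrc1, -0.15 to 0.17 for Cx3cl1 and -0.0195 to 0.093 for Tgfb1. The cause of these differences was not tested. Replicate numbers are shared by the 2 groups. The deviations of same-numbered arrays from their group means correlated at 0.04, -0.12 and -0.23 across genes. Those of differently numbered arrays correlated at -0.16 to 0.22. Such values cannot tell whether same-numbered samples were paired, and the labels do not say. With the replicate block 10 markers rose, the 9 and Lgmn (0.63, adjusted p = 0.0422), and 1501 genes in all rose, against 1833. Signal over background could not be read from these values.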
